A study of Homo sapiens with 3 samples.

Results

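The genes described here were 10 enzymes of serine synthesis and folate-dependent one-carbon metabolism: PHGDH, PSAT1, PSPH, SHMT1, SHMT2, MTHFD1, MTHFD2, MTHFD1L, ALDH1L2 and GLDC. Every probe that the array platform assigns to one of these symbols was read on every array, which gave 14 probes for the 10 genes, out of 20045 genes named on the array. The set was chosen by pathway, but with PHGDH's higher level on the FBP1 array already known, so its differences between arrays are a description and support nothing.

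The series used MDA-MB-231, a cultured human breast cancer line that is triple-negative and mesenchymal-like. Its cells were transfected with an expression vector for FBP1 (fructose-1,6-bisphosphatase 1, a gluconeogenic enzyme that acts against glycolysis) or with the empty vector. Another sample carries the label wt, and what was done to it is not described. Each of the 3 groups had 1 Illumina bead array of Cy3-labelled total RNA, and the culture medium was DMEM with 10% serum. The array with the FBP1 vector is called the FBP1 array, and the others the vector control and the wt control. The sources used here do not say whether the transfection was transient or which promoter drove the insert. With 1 array per group there is no spread between replicates and no p-value for any difference. Precision is limited by this number of arrays, and each difference is one between single arrays.

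The arrays were close in depth of detection: between 41.8% and 42.0% of the probes had a detection p-value, the platform's probability that a signal is background, under 0.01. A probe is called detected at that threshold. Levels are background-corrected, quantile-normalised log2 intensities, and a level can be compared between arrays for 1 probe but not between probes. Where a probe was not detected on the dimmer array, the fold is a lower bound, written "at least", against either its own level there or the dimmest detected probe of that array (between 4.68 and 4.70), whichever was higher. It is a bound only within this processing, since undetected probes can lie above that dimmest level and other settings gave smaller folds. FBP1 itself, read by 1 probe, read 1063.5 units on the FBP1 array, 678.6 on the vector control and 530.8 on the wt control.

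The cell line was checked before the enzymes were read. MDA-MB-231 is known to lack the chromosome segment that holds the cell cycle inhibitor gene CDKN2A and the methionine salvage gene MTAP. The brightest of the 3 CDKN2A probes gave a signal of 120.6 on the FBP1 array, 89.0 on the wt control and 88.9 on the vector control, and the detection p-values were 2.7e-10, 0.253 and 0.291. The MTAP probe gave 107.5, 85.1 and 97.7 in the same order, and its detection p-values were 3.14e-05, 0.621 and 0.0307. Both genes were thus detected on the array labelled FBP1 and on neither control. A separate check for mixed-up samples found that 1 of 3 arrays did not match what its label says. Of 11 mesenchymal breast line markers on the array, 9 were detected on each array, and FN1 and SPARC were detected on none. Their summed processed intensities were 30668 (FBP1), 34677 (wt) and 35906 (empty vector). On the FBP1 array 7 of the 9 were below the vector control and 6 below the wt control, 0 of them by 1.5-fold. Of 15 luminal breast markers, 10 were detected on the FBP1 array and 8 on each control, with summed processed intensities of 4740, 3661 (wt) and 4320 (empty vector). CDH1 and FOXA1 were detected on the FBP1 array only, AGR2 was detected on all and 2.53-fold and 3.44-fold above the vector and wt controls, and the defining markers ESR1, PGR, GATA3 and TFF1 on none. Of 11 luminal markers compared with the vector control, 8 were above it and 3 below. Against the wt control, 8 of 10 were above and 2 below, with medians of 0.07 and 0.44 (log2) against the vector and wt controls. KRT8 was 1.42-fold and 1.24-fold below them. Of 10 fibroblast markers 4 (FBP1), 3 (wt) and 4 (empty vector) were detected, with sums of 941, 926 and 908. PDGFRB was 1.52-fold and 1.66-fold above the vector and wt controls, past 1.5-fold in 5 of 9 other settings against each, among them settings that cannot move a probe detected on every array. THY1 went the other way, at least 1.24-fold and at least 3.36-fold below the vector and wt controls, which were 2.72-fold apart. Its signals were 87.3 (FBP1), 160.0 (wt) and 101.9 (empty vector). Of 9 blood cell markers 4 were detected on each array, with sums of 2336, 2194 and 2055, and PTPRC and CD3E on none, while CD14 gave signals of 559.6 (FBP1), 304.1 (wt) and 330.0 (empty vector), a level 2.06-fold and 2.34-fold above the vector and wt controls. The marker sums include undetected probes and keep background: the processed array medians were 87.8 (FBP1), 87.8 (wt) and 87.9 (empty vector). The sums of the fibroblast markers are thus mostly background. The part of other cells in the differences below was not tested, and no comparison with the FBP1 array can be made without that array.

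Serine is made from the glycolytic intermediate 3-phosphoglycerate in 3 steps, catalysed in turn by PHGDH (3-phosphoglycerate dehydrogenase), PSAT1 (phosphoserine aminotransferase) and PSPH (phosphoserine phosphatase). The serine hydroxymethyltransferases, SHMT1 in the cytosol and SHMT2 in mitochondria, then split serine into glycine and a carbon unit carried by folate, which MTHFD1 (cytosol), MTHFD2, MTHFD1L and ALDH1L2 (mitochondria) oxidise or release for the synthesis of purines, thymidylate and methionine. GLDC is the decarboxylase of the mitochondrial glycine cleavage system, which also feeds carbon units to folate. The transcription factor ATF4 is known to drive many of these genes when amino acids are short. Breast cancers differ widely in PHGDH, which is amplified in part of the triple-negative tumours, and MDA-MB-231 is known as a line that makes very little of it.

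Promoter windows, from 250 bases before to 50 bases after the transcription start, were found in RefSeq (GRCh38.p14) for 7 of the 10 enzymes; PSPH, SHMT2 and ALDH1L2 were not among the windows used. The windows of 4 genes are shown: PHGDH, which stood apart on the FBP1 array; PSAT1, the next enzyme of the pathway, which did not; MTHFD1, the member farthest below both controls; and MTHFD1L, the only member with the ATF4-type motif. Capitals mark matches, on either strand, to the ATF4-type motif TGATGNAA, the E-box CACGTG bound by MYC and related factors, and the CCAAT box, and no match overlapped another.
PHGDH, chr1:119711684-119711983, plus strand: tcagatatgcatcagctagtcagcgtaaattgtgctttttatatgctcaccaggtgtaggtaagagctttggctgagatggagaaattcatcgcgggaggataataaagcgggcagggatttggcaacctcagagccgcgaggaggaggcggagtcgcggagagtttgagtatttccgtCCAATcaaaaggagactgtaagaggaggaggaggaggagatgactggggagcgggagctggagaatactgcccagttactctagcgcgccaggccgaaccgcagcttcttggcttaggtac
PSAT1, chr9:78296875-78297174, plus strand: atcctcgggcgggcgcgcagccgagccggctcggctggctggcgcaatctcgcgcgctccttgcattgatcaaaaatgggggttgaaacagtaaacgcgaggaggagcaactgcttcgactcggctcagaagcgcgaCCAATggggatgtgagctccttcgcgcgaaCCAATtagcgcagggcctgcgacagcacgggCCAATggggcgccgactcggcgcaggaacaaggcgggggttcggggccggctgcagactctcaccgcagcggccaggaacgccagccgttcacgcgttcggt
MTHFD1, chr14:64388103-64388402, plus strand: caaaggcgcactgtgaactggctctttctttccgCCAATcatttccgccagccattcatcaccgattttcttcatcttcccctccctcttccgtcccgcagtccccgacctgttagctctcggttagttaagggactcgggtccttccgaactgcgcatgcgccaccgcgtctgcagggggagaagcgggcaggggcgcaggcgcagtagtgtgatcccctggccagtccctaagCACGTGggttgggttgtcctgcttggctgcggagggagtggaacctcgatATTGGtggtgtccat
MTHFD1L, chr6:150866236-150866535, plus strand: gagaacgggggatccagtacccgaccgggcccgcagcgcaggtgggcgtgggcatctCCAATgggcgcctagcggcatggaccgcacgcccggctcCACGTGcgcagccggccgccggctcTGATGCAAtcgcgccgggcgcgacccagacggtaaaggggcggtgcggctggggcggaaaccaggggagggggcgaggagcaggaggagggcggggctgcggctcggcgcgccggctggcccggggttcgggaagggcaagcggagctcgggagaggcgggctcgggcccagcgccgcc
The ATF4-type motif was found for 1 of the 7 genes, MTHFD1L, in 3 of its 4 windows, which overlap one another; 3.62% of all 35116 promoter windows hold it. The E-box was found for 2 genes, MTHFD1 and MTHFD1L, against 7.26% of all windows, and the CCAAT box for 7 genes, once in the PHGDH window and 3 times in the PSAT1 window, against 34.6% of all windows. The PHGDH window held neither the ATF4-type motif nor the E-box. The gene counts take a match in any window of a gene, and MTHFD1L had 4 windows, while the percentages are per single window, so the units differ. A match is a run of letters and no evidence of binding.

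PHGDH was the enzyme that set the FBP1 array apart. Its 1 probe (ILMN_1704537) gave a signal of 322.0 on the FBP1 array, 104.4 on the wt control and 89.1 on the vector control. The detection p-values were 3.48e-18, 5.48e-06 and 0.324, so PHGDH was clearly measured on the FBP1 array, lay just above background on the wt control and was not detected on the vector control. The normalised log2 levels were 8.08, 5.12 and 4.65. In this processing the FBP1 array stood at least 10.45-fold above the vector control and 7.80-fold above the wt control, and the order of the controls, both near background, is not resolved. Among 12413 detected genes 2 exceeded the vector control by more, and among 12404 genes 7 exceeded the wt control by more. The size of the fold depended on how background was treated, because both controls lay near it. In the authors' processed table, in which background remains, the intensities were 268.7 (FBP1), 97.0 (wt) and 83.7 (empty vector). Over 9 other settings the fold ranged from 3.12 to 10.78 against the vector control and from 2.77 to 7.78 against the wt control, above 1.5 in each.

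**Figure D1:**
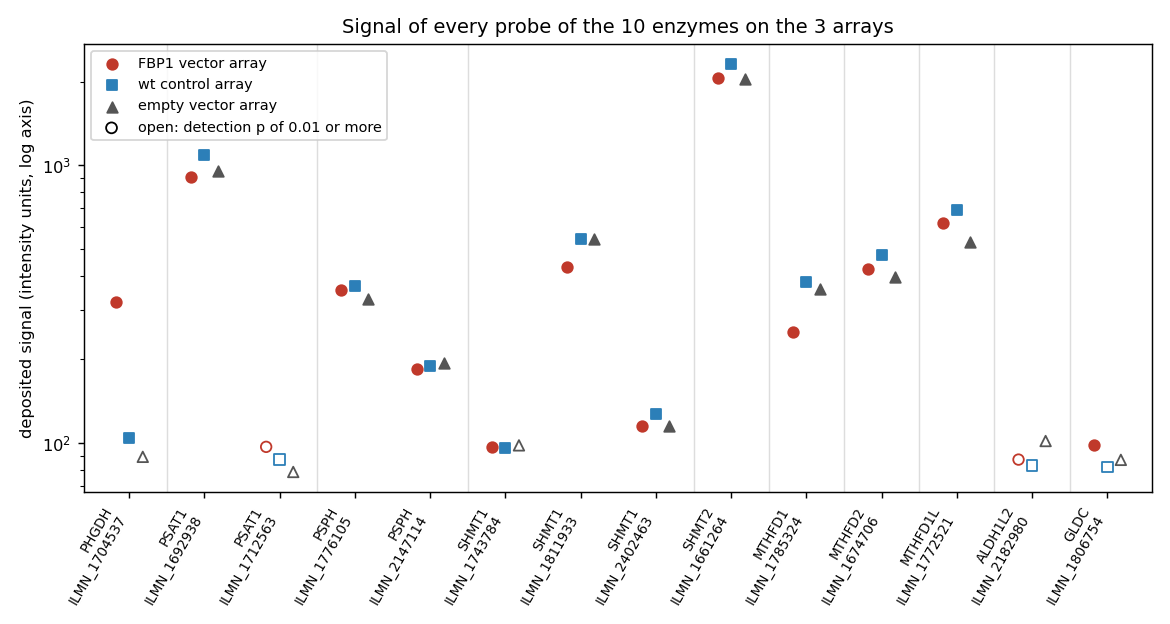
Deposited signal (intensity units, log axis) of each of the 14 probes on the FBP1 vector (red circles), wt control (blue squares) and empty vector control (grey triangles) arrays; open symbols mark a detection p-value of 0.01 or more. PHGDH has a signal of 322.0 on the FBP1 array beside 104.4 and 89.1 on the controls, while the 3 arrays lie close together for most other probes; the height of one probe cannot be set against another's.

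The enzymes of the other steps of serine synthesis did not follow PHGDH. PSAT1 was bright on every array, with 904.8 signal units on the FBP1 array, 1086.1 on the wt control and 956.5 on the vector control at probe ILMN_1692938, and its levels of 9.80, 9.90 and 9.77 put the FBP1 array between the controls. The difference was 1.02-fold up from the vector control and 1.07-fold down from the wt control, against 1.10-fold between the controls. The other PSAT1 probe (ILMN_1712563), annotated to another transcript, was detected on no array, with signals of 96.8, 87.2 and 78.6.

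PSPH had 2 probes, both detected on every array. Probe ILMN_1776105 gave signals of 355.4 (FBP1), 366.3 (wt) and 329.4 (empty vector), which became a level on the FBP1 array 1.21-fold above the vector control and 1.09-fold above the wt control. Probe ILMN_2147114 gave 183.9, 188.6 and 193.7 and placed the FBP1 array 1.02-fold above the vector control and 1.07-fold above the wt control. Both PSPH probes differed less from either control than 1.5-fold. A pseudogene copy of PSPH is known in the human genome, which its probes may also read. Over the 9 other settings PSAT1 and PSPH stayed within 1.21-fold of both controls.

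The enzymes that split serine differed little between arrays. SHMT2, the mitochondrial enzyme, gave 2054.5 signal units on the FBP1 array, 2307.9 on the wt control and 2049.1 on the vector control, and levels of 11.05, 11.05 and 10.93. The FBP1 array was thus 1.09-fold above the vector control and level with the wt control. SHMT1, the cytosolic enzyme, had 3 probes that did not all point the same way. Its brightest probe (ILMN_1811933) gave 429.2 on the FBP1 array, 543.6 on the wt control and 540.2 on the vector control, which put the FBP1 array 1.19-fold and 1.16-fold below the vector and wt controls. Probe ILMN_2402463, annotated to another transcript, gave 115.0, 127.3 and 115.2, with the FBP1 array 1.13-fold above the vector control and 1.16-fold below the wt control. The third probe (ILMN_1743784) lay at the edge of detection, with 96.7, 95.6 and 98.0. A direction for SHMT1 against the vector control therefore depended on the probe.

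MTHFD1, the trifunctional cytosolic enzyme that interconverts folate-bound carbon units for purine and thymidylate synthesis, was the member farthest below both controls. Its probe gave 250.1 on the FBP1 array, 381.0 on the wt control and 358.7 on the vector control, and levels of 7.59, 8.20 and 8.14. It was 1.46-fold below the vector control and 1.53-fold below the wt control, while the controls were 1.05-fold apart. The 1.5-fold mark against the wt control was passed in 5 of 9 other settings (range 1.34 to 1.54), and against the vector control in none of them. Apart from settings that cannot move a gene whose only probe was detected on every array, only median scaling passed the mark against the wt control.

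The mitochondrial folate enzymes stood between the controls. MTHFD2, the dehydrogenase and cyclohydrolase of proliferating cells, gave 422.8 on the FBP1 array, 474.3 on the wt control and 394.7 on the vector control. It was 1.19-fold above the vector control and 1.01-fold below the wt control. MTHFD1L, the mitochondrial formate-releasing synthetase, gave 617.0, 691.6 and 528.2, and its level of 9.20 on the FBP1 array was also 9.20 on the wt control and 8.81 on the vector control. For both, the vector control was the low one, by 1.20-fold for MTHFD2 and 1.31-fold for MTHFD1L against the wt control. ALDH1L2, the mitochondrial 10-formyltetrahydrofolate dehydrogenase, was detected on no array, with signals of 87.1 (FBP1), 82.9 (wt) and 101.6 (empty vector), so no fold is given.

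At the brightest probe, GLDC was the only member besides PHGDH that was detected on the FBP1 array and missing from a control, but at a level near background. Its probe gave 98.0 on the FBP1 array, 81.8 on the wt control and 86.9 on the vector control, and the detection p-values were 0.000895, 0.978 and 0.56. The FBP1 array stood at least 1.23-fold above the vector control and at least 1.24-fold above the wt control, and in no setting did it reach 1.5-fold. Detection near background was not equal between arrays: the background spread (SD) was 4.2 (FBP1), 16.2 (wt) and 12.8 (empty vector). SHMT1 probe ILMN_1743784 read 98.0 on the vector control without being detected (detection p-value 0.0118). At 95.6 on the wt control it was detected (0.00559).

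**Figure D2:**
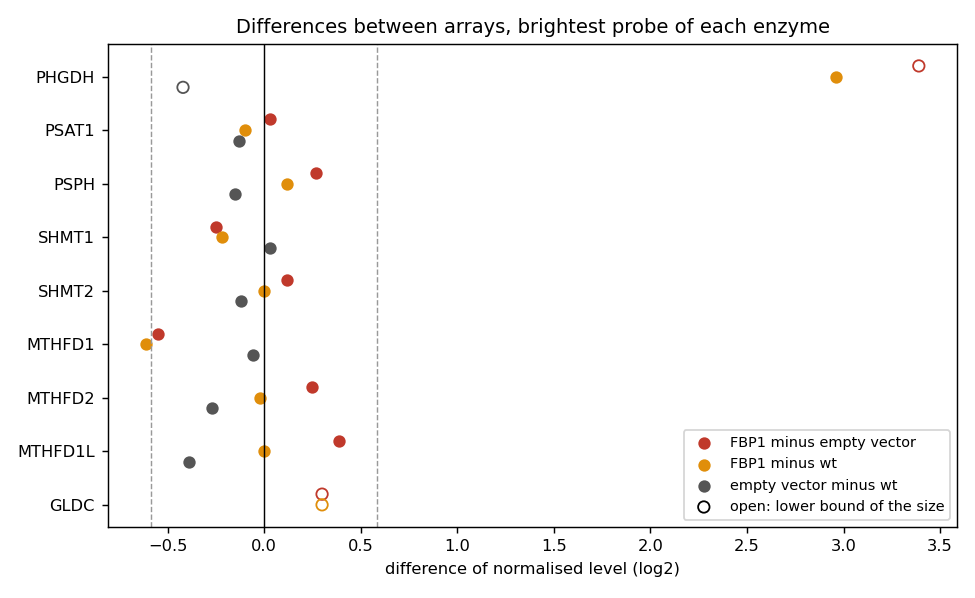
Difference of normalised log2 level between arrays for the brightest probe of the 9 detected enzymes: FBP1 minus empty vector (red), FBP1 minus wt (orange) and empty vector minus wt (grey); open circles are lower bounds and dashed lines mark 1.5-fold. PHGDH lies at 3.39 and 2.96, MTHFD1 at -0.55 and -0.61, and the other measured differences within 1.5-fold of both controls; GLDC is a lower bound of 0.30 against each.

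Counted over the set, 9 of the 10 enzymes were detected on at least 1 array and 7 had a probe detected on all 3. Against the vector control, 1 of 9 detected members (PHGDH) was at least 1.5-fold higher, where 6.56% of 12413 detected genes were, and 0 were that much lower, where 5.91% were. Against the wt control, 1 of 9 (PHGDH) was higher, where 8.76% of 12404 genes were, and 1 (MTHFD1) was lower, where 7.81% were. Standing at least 1.5-fold above both controls held for 1 member and for 3.98% of 12895 genes, and below both for 0 members and 3.05%. The count of members past the mark was thus near what all genes gave. PHGDH's higher level was known when the set was chosen, so the size of its difference is a description only. The members' median was 0.25 (log2) against the vector control and 0.00 against the wt control, where the medians of all detected genes were -0.01 and 0.00. These comparisons share the FBP1 array and are not independent. Between the controls, 0 of 8 detected members were 1.5-fold apart (7.01% of 12344 genes were), but 7 of the 8 were lower on the vector control, with a median of -0.14 against 0.01 for all genes. The 7 include PHGDH, for which the order of the controls is not resolved. For PSPH and SHMT1 the direction between the controls depended on the probe.

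**Figure D3:**
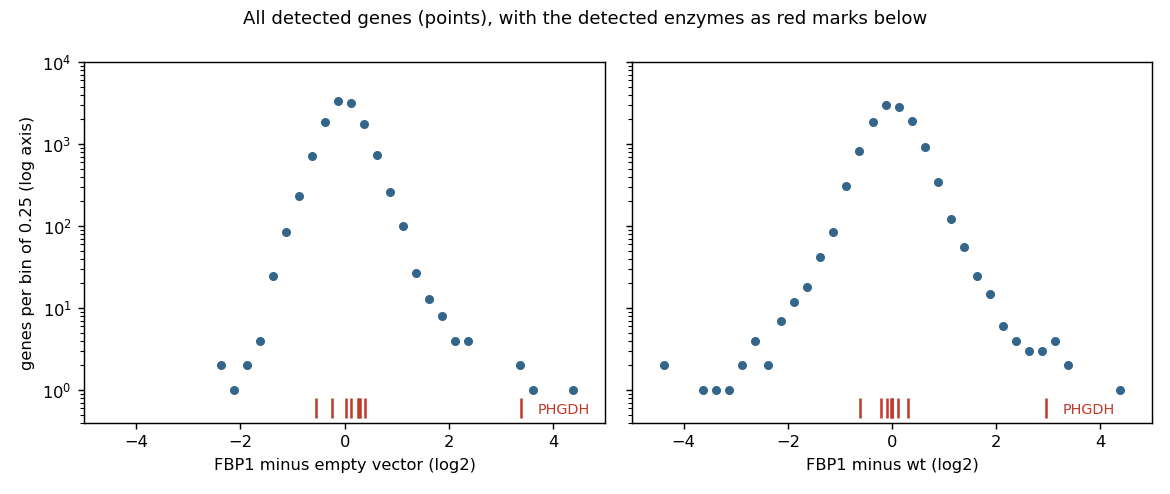
Number of detected genes (points, log axis) in each bin of 0.25 of the log2 difference between the FBP1 array and the empty vector (left) or wt (right) array, with the 9 detected enzymes as red marks below. PHGDH lies in the sparse right tail at 3.39 and 2.96, and the other marks lie among the bulk of the genes.

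Downstream of serine, the genes of transsulfuration were higher on the FBP1 array. CBS (cystathionine beta-synthase), which joins serine to homocysteine, gave 155.1 signal units on the FBP1 array, 97.4 on the wt control and 88.7 on the vector control, and was detected on the FBP1 array only. It was at least 3.45-fold above the vector control and at least 3.00-fold above the wt control. CTH (cystathionine gamma-lyase), which releases cysteine in the next step, gave 293.6, 172.8 and 180.0 at its brightest probe, 2.28-fold above the vector control and 2.44-fold above the wt control, and its 2 dimmer probes pointed the same way. Both genes stayed at least 1.5-fold above both controls in all 9 other settings, but CBS fell to as little as 1.64-fold and 1.55-fold. Of 8 detected members of the methionine and transsulfuration list, 2 were at least 1.5-fold above the vector control and 0 below, and against the wt control 3 were above and 1 below, AHCY (S-adenosylhomocysteine hydrolase, 1.75-fold lower). The list medians were 0.23 and 0.12 (log2). For this and each list below, 6.56% of all detected genes were above and 5.91% below the vector control by 1.5-fold, and 8.76% above and 7.81% below the wt control.

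Genes of the glycine cleavage system and of serine and glycine transport went both ways. AMT, the aminomethyltransferase partner of GLDC, gave 231.6 on the FBP1 array, 138.8 on the wt control and 180.1 on the vector control, 1.65-fold above the vector control and 2.63-fold above the wt control, but the controls were themselves 1.59-fold apart. GCSH, the lipoyl carrier of the same complex, gave 258.8, 432.7 and 381.8 and was 1.51-fold and 1.70-fold below the vector and wt controls. It has pseudogene copies. GCSH passed 1.5-fold against the vector control in 4 of 9 other settings and AMT in 5. Apart from settings that cannot move these values, only median scaling passed that mark for either gene. Against the wt control AMT went down to 1.62-fold. SLC38A2, a sodium-coupled carrier of serine and other small amino acids, gave 2778.4, 1759.4 and 1715.9 and was 1.78-fold and 1.81-fold higher, in all 9 other settings by at least 1.74-fold. SFXN2, of the mitochondrial sideroflexin family that includes serine carriers, was 1.52-fold and 1.70-fold lower. It was past 1.5-fold in 5 of 9 other settings against each, most of which cannot move a gene whose only probe was detected on every array. Of the 14 detected genes of this list, 3 were at least 1.5-fold above and 2 below the vector control, 4 were above and 5 below the wt control, and the medians were -0.33 and -0.16. The counts below the controls fell to 0 for both with the authors' table.

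Other folate genes were level or lower. MTHFS, which returns 5-formyltetrahydrofolate to the active pool, gave 193.2 on the FBP1 array, 299.9 on the wt control and 297.0 on the vector control, 1.67-fold and 1.66-fold below the vector and wt controls, and past 1.5-fold in 6 of 9 other settings against each. TYMS, thymidylate synthase, gave 1346.6, 2326.3 and 2139.2, 1.48-fold below the vector control and 1.55-fold below the wt control. Of 8 detected genes of the list, 1 (FOLR1, whose 3 probes disagreed) was at least 1.5-fold above the vector control and 1 (MTHFS) below, 0 were above and 2 below the wt control, and the medians were -0.30 and -0.10. In purine synthesis, the main use of the folate carbon units, 0 of 12 detected genes were 1.5-fold above and 2 below the vector control, and 0 were above and 4 below the wt control, with medians of -0.24 and -0.48. PRPS2, which makes the ribose phosphate donor, was below both, by 1.55-fold and 1.52-fold. The vector control also lay below the wt control on the purine list, by a median of -0.23.

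S phase genes were lower too. All 20 detected S phase genes of the list were below both controls on the FBP1 array, 6 of them by at least 1.5-fold against the vector control and 8 against the wt control, with medians of -0.38 and -0.50; in other settings these counts fell to as few as 3 and 5. The medians of all detected genes were -0.01 and 0.00. RRM2, the regulated subunit of ribonucleotide reductase, was 1.87-fold and 2.42-fold lower, and TK1, thymidine kinase, 1.73-fold and 1.86-fold lower. Also 1.5-fold below both were RRM1, the other reductase subunit (1.61-fold and 1.66-fold), GINS2 of the replicative helicase complex (1.95-fold and 1.79-fold) and the clamp loader subunit RFC3 (1.84-fold and 1.74-fold). The part of the cell cycle in the folate gene differences was not tested.

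Of 23 detected genes of a list that joins ATF4, other regulators of the pathway (the eIF2-alpha kinases, MYC and NFE2L2 among them) and ATF4 targets outside it, 20 were above the vector control and 17 above the wt control by any amount. The medians of all detected genes against these controls were -0.01 and 0.00 (log2). The vector control itself lay below the wt control for 15 of the 23, with a median of -0.13. ATF4 itself gave 6313.8 on the FBP1 array, 5945.6 on the wt control and 5153.6 on the vector control at its brightest probe, 1.31-fold and 1.16-fold higher than the vector and wt controls. ASNS (asparagine synthetase), a classical ATF4 target, was 1.24-fold and 1.38-fold higher. At least 1.5-fold above both controls were the hormone gene STC2 (at least 4.71-fold and 3.87-fold, and as little as 1.91-fold and 1.77-fold in other settings), the pseudokinase gene TRIB3 (2.10-fold and 2.55-fold), the mTORC1 inhibitor gene DDIT4 (1.81-fold and 2.06-fold), the stress transcription factor gene DDIT3 (1.73-fold and 1.71-fold) and EIF2AK4, the amino acid-sensing kinase GCN2 (1.56-fold and 1.70-fold). Of the 23, 6 were 1.5-fold above the vector control and 0 below, where 6.56% and 5.91% of all genes were, and 5 were above and 1 below the wt control, where 8.76% and 7.81% were; the 1 was SLC7A5, a large amino acid transporter (1.55-fold lower). The medians were 0.32 and 0.20. Among the members, PHGDH passed 1.5-fold against both controls, as given above. PSAT1, SHMT2 and MTHFD2, which ATF4 is known to drive, did not reach it against either control. The part of ATF4 in any of these differences was not tested.

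Around the branch point, the glycolytic genes that make and use 3-phosphoglycerate differed by less than 1.5-fold from the vector control. PGK1 (phosphoglycerate kinase) was 1.33-fold and 1.34-fold above the vector and wt controls at its brightest probe, but its other probe differed by 0.02 and 0.10 (log2). PGAM1 (phosphoglycerate mutase) was 1.21-fold and 1.15-fold higher, and GAPDH 1.07-fold and 1.11-fold lower. Of 8 detected genes, 0 passed 1.5-fold against the vector control and 1, BPGM, against the wt control (1.58-fold higher), with medians of 0.16 and 0.38.

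**Figure D4:**
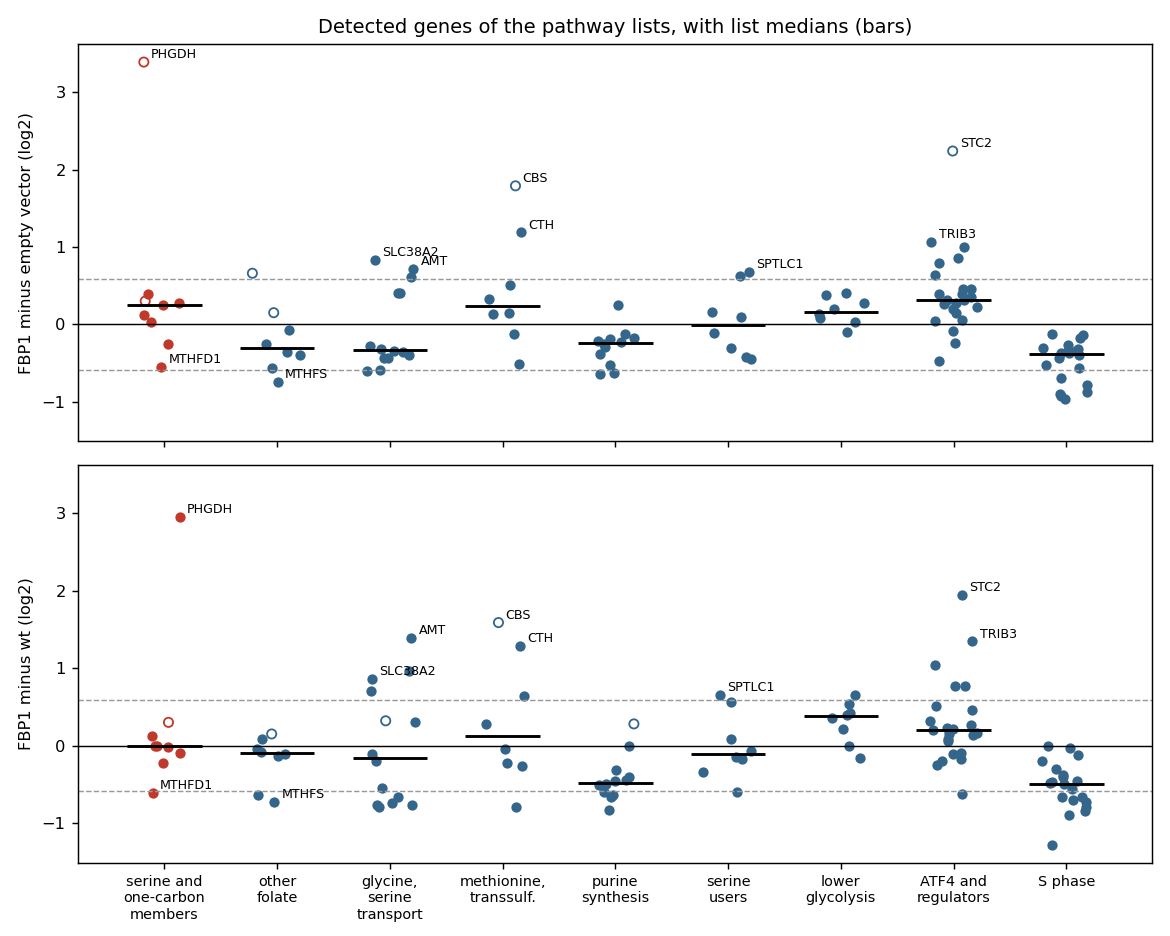
Difference of normalised log2 level on the FBP1 array from the vector control (top) and the wt control (bottom) for every detected gene of the members (red) and 8 related lists (blue); bars are list medians, open circles lower bounds and dashed lines 1.5-fold. PHGDH, CBS, CTH, STC2 and TRIB3 stand high in both panels, and the S phase genes lie below 0.

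The genes whose profile over the 3 arrays was most like that of PHGDH were found by the Euclidean distance between profiles centred on their own mean, over 11584 other genes detected on the FBP1 array. The nearest were the chemokine gene CCL20 (distance 0.22), the macrophage growth factor gene CSF1 (0.69), the butyrylcholinesterase gene BCHE (0.76), the membrane protein gene TMEM98 (0.81) and FAM83A (0.90). CCL20 read 1142.8 on the FBP1 array, 216.0 on the wt control and 161.1 on the vector control, and CSF1 268.1, 107.2 and 111.4. None of the other 9 enzymes was among them. A profile over 3 arrays says nothing of shared control.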

How the data were processed

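Total RNA of 3 cultures was measured on 1 Illumina array each. Per the file headers, the deposited non-normalised table gives linear intensities, each with a detection p-value. The other table gives the authors' processed intensity; its array medians (87.8, 87.8, 87.9) are nearly equal, through a normalisation that the sources used here do not describe. Each processed column matched its own sample in rank (Spearman correlation across probes of at least 0.9997, at most 0.8391 with the others). Of 48107 probes, 2 lacked a value and were dropped.

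The neqc function of limma 3.58.1 (R 4.3.3, offset 16) corrected background, inferred from the detection p-values, then quantile-normalised the arrays on the log2 scale. Its background spread was 4.2 units (SD) on the FBP1 array, 16.2 on the wt control and 12.8 on the vector control. Probes were named through the platform annotation: 17986 probes were unnamed here, 8 with several genes were not used, and of 30113 with 1 gene, 30074 took their symbol from RefSeq GRCh38.p14 by gene ID. A gene is read from its brightest probe, and entered a comparison if detected (p under 0.01) on at least 1 array compared. Genes were counted at 1.5-fold, using the lower bound where the dimmer array did not detect the probe. Alternatives were the normexp background with an offset of 50, no background correction, median scaling, the authors' table, neqc with offset 50, a detection p of 0.05, no filter and the mean of a gene's probes; measured differences in place of bounds were added after the data were seen. The main normalisation was checked on simulated arrays that all had the same background spread, unlike the measured arrays, and for the folds of probes well above background. Unequal spreads and probes near background were not checked. The other steps were not checked in this way. Python 3.11.15, numpy 2.4.6 and pandas 2.3.3 were used.

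The members and lists were chosen with earlier results of these data known. The genes named were the members; in other pathway lists, those at least 1.5-fold above or below both controls or otherwise the highest or lowest, with TYMS, ATF4, ASNS, PGK1, GAPDH and PGAM1 always; and the 5 nearest to PHGDH, leaving out genes of the sex chromosome check, which is given as a count only. That check, the CDKN2A and MTAP check and the motifs were chosen after values had been seen, and so were AHCY, FOLR1, SLC7A5, BPGM, GCLC, PTDSS1, GSS, PTDSS2 and the markers AGR2, PDGFRB, THY1 and CD14 as named genes.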

Additional observations from a re-analysis of the deposited data

How the results depend on the processing

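No paired analysis was possible because each group has 1 array, and no array could be left out of a group. For a gene whose probe was detected on every array, the settings that change only detection or bounds repeat the main value. The mean of probes also repeats it for a gene with 1 probe. A count out of 9 settings therefore includes such repeats. PHGDH kept its direction and stayed past 1.5-fold against both controls in all 9 alternatives, as did CBS, CTH, SLC38A2, TRIB3, STC2, DDIT3 and DDIT4. The 1 member at least 1.5-fold below the wt control (MTHFD1) became 0 with the authors' processed table, with an offset of 50, with no background correction and with normexp at an offset of 50, which changes background and offset together. The members' median against the vector control, 0.25, was 0.12 with the authors' table and 0.14 with an offset of 50. These 4 settings also lowered the count of all genes 1.5-fold apart, by their construction, since each leaves background in the values or adds a larger constant to them. Against the vector control it went from 1547 to 403 (authors' table), 758 (offset 50), 531 (no background correction) and 671 (normexp, offset 50); against the wt control from 2055 to 670, 1147, 858 and 1020; and between the controls from 865 to 131, 303, 180 and 257. Of the genes apart from the vector control, 52.6% were higher, 65.3% with the authors' table and 47.3% with median scaling (against the wt control 52.8%, 61.8% and 48.6%), so which direction held the majority depended on the scaling. SPTLC1 fell under 1.5-fold (0.11 and 0.06, log2) with the mean of its probes. No pathway list gene past 1.5-fold changed sign in these 9 alternatives, but the other probes of FOLR1 pointed down. Of 52 further differences past 1.5-fold in the lists, marker lists included, 30 fell under 1.5-fold in at least 1 alternative. The signals of ALDH1L2, GLDC, PHGDH on the controls and 1 probe each of PSAT1 and SHMT1 lay near background, where these arrays cannot resolve differences.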

Other observations

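Genes that use serine and glycine for other products went both ways, also within a pathway. SPTLC1, a subunit of serine palmitoyltransferase, which joins serine to palmitate at the start of sphingolipid synthesis, gave 2394.2 signal units on the FBP1 array, 1742.5 on the wt control and 1651.9 on the vector control at its brightest probe, 1.61-fold above the vector control and 1.58-fold above the wt control. Its other 4 probes differed by between -0.30 and 0.22 (log2) from the vector control, so the difference belongs to 1 of 5 probes. GCLC, the catalytic subunit of the first enzyme of glutathione synthesis, gave 203.1, 170.8 and 166.8 and was 1.55-fold and 1.47-fold above the vector and wt controls. PTDSS1, phosphatidylserine synthase 1, gave 1084.6, 1822.3 and 1546.4 and was 1.34-fold and 1.52-fold lower. The partner genes GSS (glutathione synthetase) and PTDSS2 differed by -0.30 and 0.16 (log2) from the vector control. Of 8 detected genes of this list, 2 were at least 1.5-fold above the vector control and 0 below, 1 was above and 1 below the wt control, and the medians were -0.01 and -0.11.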
